A study of Mus musculus with 9 samples.

Results

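The 8 genes described here encode the core of the red cell membrane skeleton and a set of blood group antigens: Spnb1, Ank1, Slc4a1, Epb4.1, Epb4.2, Rhag, Icam4 and Kel. They were chosen by gene symbol from a table of 23285 genes, and each symbol matched 1 entry. All 8 had a completed test in each of the 3 comparisons, so none was lost to low values. The older symbols of the table correspond to Sptb (Spnb1, beta-spectrin), Epb41 and Epb42 in RefSeq.

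The red cell skeleton is a mesh of spectrin under the lipid bilayer. The Epb4.1 protein joins spectrin tails to short actin filaments, and ankyrin ties beta-spectrin to the anion exchanger band 3, with the Epb4.2 protein at the same site. Surface proteins that carry blood group antigens, among them the Rh-associated glycoprotein, the Landsteiner-Wiener antigen and the Kell protein, sit in or near these complexes. Erythroblasts build up this membrane while they mature, and inherited lack of spectrin, ankyrin or band 3 gives fragile, rounded red cells.

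RNA sequencing was done on immature erythroid cells of bone marrow from C57BL/6 mice carrying floxed Trim28 alleles, in 3 groups of 3 libraries. Control cells (FFa) were CD71(hi)TER119+ cells from TRIM28(flox/flox) mice without Cre. KOa cells came from TRIM28(flox/flox):Mx1Cre mice through the same gate, and the labels call them modestly deleted. KOb cells came from mice of that mutant genotype but were CD71(hi)TER119-, and are called severely deleted. CD71 is the transferrin receptor, and TER119 is a surface antigen of maturing erythroid cells. Cre was induced with 5 injections of poly(I:C), and mice were studied 2 weeks after the last of them. Per the series description 5 to 8% of the gene was left undeleted in KOa and 1 to 4% in KOb, with 26% and 18% of the mRNA. The Mx1 promoter responds to interferon and is active in blood-forming cells in general, not in erythroid cells alone. The labels do not give the age of the mice, whether controls received poly(I:C), or whether each library is a separate mouse, so the spread behind the p-values may be technical. The sort gate and the degree of deletion cannot be told apart in any comparison with KOb. Cre cannot be told apart from the deletion in any comparison with the control.

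The authors' deposited table gives 1 FPKM per gene and group (fragments scaled by transcript length and by mapped fragments), so no value here has an SD or an n, and library depth is unknown. Each log2 ratio and q below is that table's, and ± gives the standard error implied by its test statistic. A gene counts as called where this q is below 0.05. The FPKM of Trim28 was 26.0 in the control, 6.64 in KOa and 4.76 in KOb. Trim28 was called lower in both mutants than in the control, but not in KOb against KOa (deposited log2 ratio -0.48 ± 0.32, q 0.0535). The labelled cell type was borne out by the heme synthesis gene Alas2 (FPKM 2082 in the control, 1167 in KOa and 861 in KOb) and by the CD71 gene Tfrc (81.4, 62.5 and 61.8). Of 10 erythroid markers, Alas2 was called lower in KOa and KOb than in the control, and the progenitor receptor gene Kit was called higher in both (0.399, 0.751 and 2.36 FPKM).

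Genes of other blood cells were present in every group, since no marker of the 4 lists stood at 0. The summed FPKM of 10 B cell markers was 306 in the control, 45.9 in KOa and 37.3 in KOb, and all 10 were called lower in both mutants. For 16 granulocyte markers the sums were 49176, 16662 and 13524, or 3958, 1561 and 1215 without S100a8 and S100a9. Of the 16, 8 were called lower in KOa and 10 in KOb, and 2, Mpo and Ctsg, were called higher in each. For 13 macrophage markers the sums were 98.0, 63.1 and 36.8, and of 12 tested 7 were called lower in KOa and 12 in KOb. For 10 megakaryocyte markers the sums were 39.3, 70.5 and 57.0, and of 7 tested 3 were called higher in each mutant, with 1 lower in KOa and 2 lower in KOb. Of all tested genes 14.1% were called lower and 7.99% higher in KOa, and 15.2% and 12.8% in KOb. In bulk RNA, fewer cells of a type and less RNA per cell cannot be told apart. The part that these other blood cells have in the results below was not tested.

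FPKM puts the 8 genes on a common scale per transcript length. Slc4a1, the gene of band 3, had the highest level throughout: 867 in the control, 714 in KOa and 470 in KOb. Epb4.1 was next in the control, with an FPKM of 462, and stood at 276 in KOa and 207 in KOb. Epb4.2 had an FPKM of 219 in the control, 210.1 in KOa and 142 in KOb. All 3 of these were ordered from the control down to KOb.

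Rhag encodes the Rh-associated glycoprotein, a membrane channel needed for Rh antigens at the surface, and its FPKM was 152 in the control, 194 in KOa and 165 in KOb. It was the only member whose lowest level was in the control. Kel, the gene of the Kell endopeptidase, stood at 99.1 in the control, 104 in KOa and 64.7 in KOb. Icam4 encodes the Landsteiner-Wiener adhesion protein, which binds integrins, and its levels were 94.99, 117 and 60.3 FPKM in the same order.

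Ank1, the gene of erythroid ankyrin, had an FPKM of 94.3 in the control, 114 in KOa and 66.0 in KOb. Like Icam4 and Kel it was highest in KOa and lowest in KOb. Spnb1 had the lowest level of the 8 in each group, with an FPKM of 77.3 in the control, 27.5 in KOa and 18.2 in KOb. Like Slc4a1, Epb4.1 and Epb4.2 it was ordered from the control down to KOb. Without values per library it cannot be judged which neighbours in the order of levels, such as Kel, Icam4 and Ank1 in the control, differ beyond their spread.

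**Figure D1:**
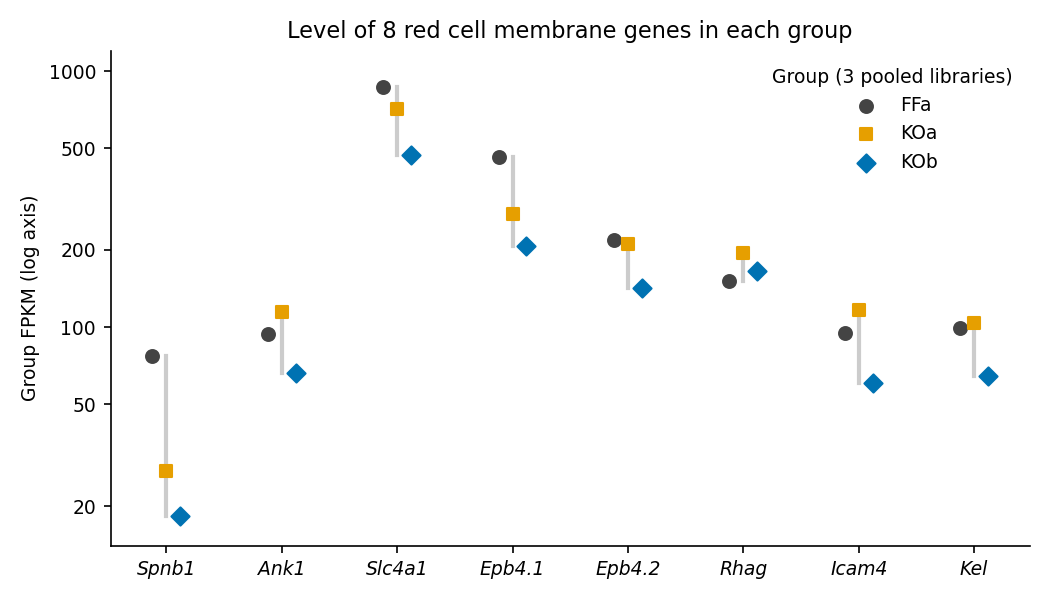
FPKM of the 8 genes (log axis) in the control (FFa), KOa and KOb, 1 point per group of 3 pooled libraries, with grey lines from the lowest to the highest group. KOb is the lowest group for every gene except Rhag (165 in KOb, 152 in the control), and the widest span on this log axis is that of Spnb1, from 77.3 to 18.2.

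The genes lie on 8 different chromosomes (mm10), and all are annotated as protein coding in GENCODE M21. Spnb1 lies at chr12:76580488-76710547 on the minus strand and Ank1 at chr8:22974882-23150496 on the plus strand. The Ank1 locus also holds the microRNA entries Mir486 and Mir3107, both listed at 0 in all groups. That listing does not show that the short microRNAs are absent. Slc4a1 lies at chr11:102348820-102365281, Epb4.1 at chr4:131923427-132075313, Epb4.2 at chr2:121018217-121036755 and Kel at chr6:41686330-41704325, all on the minus strand. Rhag lies at chr17:40811149-40840754 and Icam4 at chr9:21029373-21030531, both on the plus strand. Ank1 and Epb4.1 have 13 and 14 annotated coding transcripts, whose levels the table merges into 1 value per gene.

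Erythroid membrane genes are known targets of the transcription factors GATA1 and KLF1, and RefSeq promoter windows (GRCm38.p6) were at hand for Spnb1, Epb4.1, Epb4.2, Rhag, Icam4 and Kel. The 250 bases before the start that defines each window were searched on both strands for the GATA-type letters AGATAA or AGATAG and likewise TGATAA or TGATAG, and for the CACCC-type letters CCNCNCCC. GATA letters were found for 5 of these 6 genes, and 26.5% of all 32851 windows held them. CACCC-type letters were found for Spnb1, Epb4.1 and Icam4, 3 of the 6, and 45.9% of all windows held them. The counts are of genes, which have 8 windows in all, while the percentages are of single windows. Epb4.1 has 3 windows, of which 1 holds GATA letters. A match describes letters only and is no shown binding site. The stretch before Kel is shown because it holds 2 GATA matches close to the start. That before Spnb1, the member with the widest span of levels on a log axis, is shown because it holds no GATA match. Capitals mark the GATA letters in Kel and the CACCC-type letters in Spnb1, where the first run joins 2 overlapping matches on the opposite strand.
Kel, chr6:41704335-41704575, minus strand: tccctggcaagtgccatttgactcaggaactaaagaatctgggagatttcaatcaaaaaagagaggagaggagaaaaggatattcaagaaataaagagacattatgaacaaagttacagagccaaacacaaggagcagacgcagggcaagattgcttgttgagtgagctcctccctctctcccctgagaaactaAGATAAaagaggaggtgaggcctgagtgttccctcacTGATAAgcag
Spnb1, chr12:76710548-76710797, minus strand: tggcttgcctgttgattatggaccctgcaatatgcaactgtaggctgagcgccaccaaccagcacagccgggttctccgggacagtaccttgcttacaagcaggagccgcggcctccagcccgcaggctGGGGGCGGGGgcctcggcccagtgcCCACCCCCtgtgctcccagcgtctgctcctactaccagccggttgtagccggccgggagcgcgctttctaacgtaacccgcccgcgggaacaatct

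The GATA matches of the other 4 genes are shown with their surroundings, 30 bases each along the gene's strand, to set Rhag beside genes that were lower in KOb. All 4 matches read on the opposite strand, so the capitals show the reverse complement of AGATAA for Epb4.2 and Icam4, of TGATAA for Rhag and of TGATAG for Epb4.1. They begin 226 bases before the start that defines the window for Epb4.2, 43 for Icam4, 31 for Rhag and 184 for Epb4.1. Those of Rhag and Icam4 lie inside the span of the gene in 1 of the sources. RefSeq lets Rhag begin at base 40811099, and the authors' deposited table lets Icam4 begin at base 21029373.
Epb4.2, chr2:121037086-121037115, minus strand: gtctctatttccTTATCTcgttcaaacaga
Icam4, chr9:21029377-21029406, plus strand: cagggtgccttcTTATCTcctgcggccagc
Rhag, chr17:40811106-40811135, plus strand: agtcctctgctcTTATCAacactatacagc
Epb4.1, chr4:132075480-132075509, minus strand: attgctctgggtCTATCAggagctgctcta

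KOa and the control passed the same gate, and in KOa 2 skeleton genes fell while the other 6 members did not pass the threshold. Spnb1 was at 35.6% of the control, a deposited log2 ratio of -1.49 ± 0.31 (q 0.000619). Epb4.1 was at 59.8%, a deposited ratio of -0.74 ± 0.37 (q 0.00479). With equal FPKM sums without globin genes, Spnb1 would be at -0.95 and Epb4.1 at -0.21, which is less than its standard error. These 2 of 8 members are set against 14.1% of 10761 tested genes called lower, or 12.3% of the 2267 that had at least 10 FPKM in all groups. None of the 8 was called higher by Cuffdiff, against 7.99% of genes, and at an unadjusted p under 0.05 there were 2 lower members and 1 higher. Under a standard normal reading of the authors' statistic, where 4.95% of genes were called lower, Spnb1 passed and Epb4.1 did not (q 0.293).

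Slc4a1 had a deposited log2 ratio of -0.28 ± 0.41 in KOa (q 0.436) and Epb4.2 stood at -0.06 ± 0.30. The genes of band 3 and of its partner thus differed from the control by less than their standard errors. Values above 0 were those of Rhag (0.35 ± 0.28, q 0.141), Icam4 (0.30 ± 0.24), Ank1 (0.27 ± 0.33) and Kel (0.07 ± 0.27), and none passed. The median of the 8 deposited ratios was 0.0052, beside -0.08 over all tested genes. Scaling the groups to the same FPKM sum without globin genes would add 0.54 to every ratio in KOa. Below the median of expressed genes lay 4 members, a count that no shift of all genes alike can change.

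In KOb, sorted as TER119-negative, 7 of the 8 genes were called lower than the control on the authors' scaling, with Rhag as the exception. Of all 10584 tested genes 15.2% were called lower and 12.8% higher, and among the 2267 that had at least 10 FPKM in all groups 19.7% were lower. The median deposited log2 ratio of the members was -0.64, or -0.63 without Spnb1, and that of all tested genes was -0.01. Scaling to equal FPKM sums would add 0.91 to every ratio of KOb to the control, since the sums were 1239023 in the control and 659009 in KOb, with globin genes at 64.6% and 53.3% of them. On that scale Spnb1 and Epb4.1 would be the 2 members below 0. Below the median of expressed genes lay 7 of 8, a count that rescaling cannot change because it shifts all genes alike.

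Among the skeleton genes in KOb, Spnb1 was at 23.6% of the control, a deposited log2 ratio of -2.08 ± 0.31 (q 0.000619). Epb4.1 was at 44.7%, with a deposited ratio of -1.16 ± 0.37 and the same q. Ank1 was at 70.0% (-0.52 ± 0.32), and its q of 0.0284 was the highest of the 7 called genes. Spnb1 thus had the lowest share of its control level among the 8 members.

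Slc4a1 was at 54.2% of the control in KOb, with a deposited log2 ratio of -0.88 ± 0.39 (q 0.00161). Epb4.2 was at 64.7% (-0.63 ± 0.30, q 0.00328). Kel was at 65.3% (-0.62 ± 0.27) with the same q, and Icam4 at 63.5% (-0.66 ± 0.24, q 0.00289). Rhag was at 109%, with a deposited log2 ratio of 0.12 ± 0.28 (q 0.668). GATA letters stand in the printed stretches of Rhag, Epb4.1, Epb4.2, Icam4 and Kel alike, and whether they bear on these levels was not tested. Under a standard normal reading of the statistic, 2 of the 8 remained called in KOb, Spnb1 (q 1.4e-09) and Epb4.1 (q 0.0276), against 5.92% of genes called lower. The calls for the other 5 rest on the authors' own p-values.

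**Figure D2:**
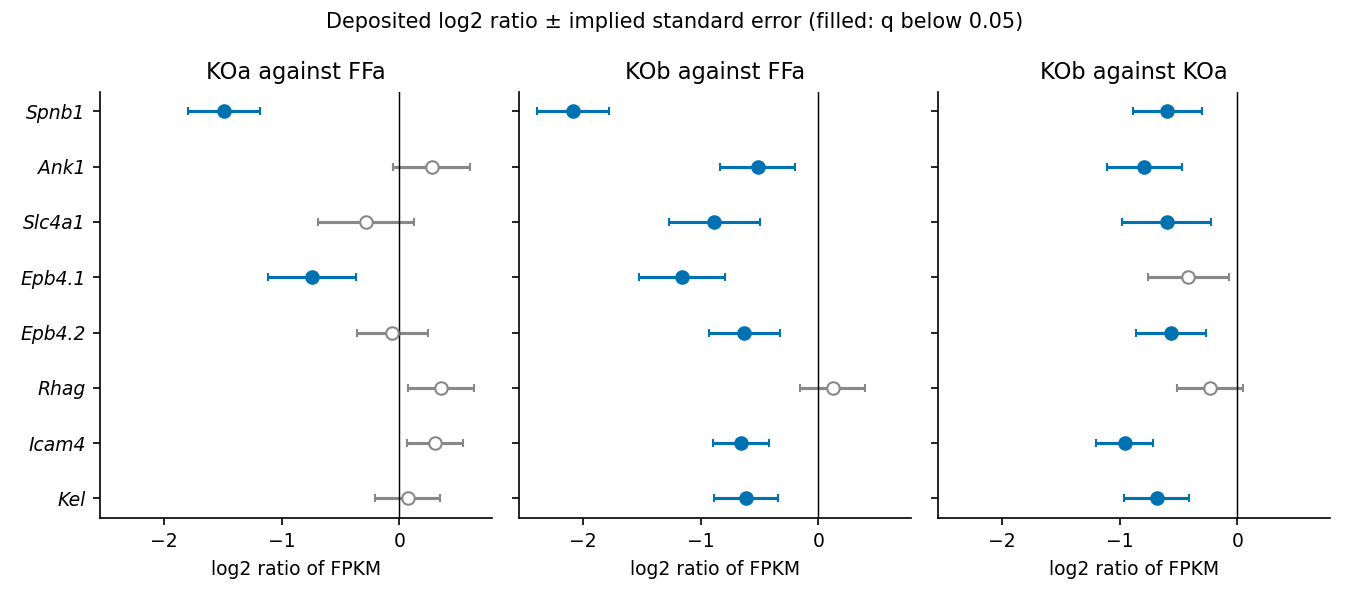
Deposited log2 ratio of FPKM for the 8 genes in the 3 comparisons, with bars of ± 1 standard error implied by the authors' statistic, filled where the deposited q is below 0.05. In KOa against the control 2 genes are filled, in KOb against the control 7 and in KOb against KOa 6, all at negative ratios on the authors' scaling, while equal FPKM sums would turn 5 of the 7 and 5 of the 6 positive.

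KOb against KOa sets the mutant populations beside each other, and here Icam4, Ank1, Kel, Slc4a1, Spnb1 and Epb4.2 were called lower in KOb. These 6 of 8 members stand against 6.19% of 10468 tested genes called lower and 10% called higher, and against 15.3% lower among genes that had at least 10 FPKM in all groups. No member was called higher by Cuffdiff, and none was higher at an unadjusted p under 0.05. Icam4 was at 51.6% of KOa (deposited log2 ratio -0.96 ± 0.24, q 0.000619). Ank1 was at 57.9% (-0.79 ± 0.32) and Kel at 62.1% (-0.69 ± 0.28), both with that same deposited q. Under a standard normal reading of the statistic Icam4 was the 1 member called (q 0.00277), against 0.793% of genes called lower.

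Slc4a1 was at 65.9% of KOa, with a deposited ratio of -0.60 ± 0.38 and a q of 0.0389 that missed the threshold when adjusted within this comparison (0.0544). Spnb1 was at 66.2% (-0.60 ± 0.29, q 0.00479) and Epb4.2 at 67.5% (-0.57 ± 0.30, q 0.0108). Epb4.1 (-0.42 ± 0.35) and Rhag (-0.23 ± 0.28) did not pass. The median of the 8 deposited ratios was -0.60, against 0.05 over all tested genes. With equal FPKM sums every ratio would be higher by 0.95, leaving 1 member, Icam4, below 0. Below the median of expressed genes lay 8 of 8, and here too rescaling cannot change that count. The 3 comparisons share groups, so their values are given side by side and not as separate evidence. Of the leukocyte markers tested between the mutants, 1 of 9 B cell, 1 of 16 granulocyte and 4 of 11 macrophage genes were called lower in KOb. The share of all tested genes called lower there was 6.19%.

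Ratios between 2 genes within a group do not depend on the scaling between groups, so they were taken for proteins known to work together. The ratio of Epb4.1 to Spnb1 was 5.98 in the control, 10.03 in KOa and 11.3 in KOb (log2 changes from the control of 0.75 ± 0.48 and 0.92 ± 0.48, with standard errors combined as if the genes were independent). In both mutants the level of Spnb1 was thus lower beside that of its linker to actin than in the control. None of these ratios was tested.

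Around band 3 the ratios taken here changed less in size, but the standard errors are too wide to set these changes apart from those above. Slc4a1 to Epb4.2 was 3.96 in the control, 3.40 in KOa and 3.31 in KOb, with log2 changes of -0.22 ± 0.51 and -0.26 ± 0.49. Slc4a1 to Ank1 was 9.20, 6.26 and 7.13 (-0.56 ± 0.52 in KOa and -0.37 ± 0.50 in KOb). For these band 3 pairs the change from the control was close to or below its standard error. Ank1 and Spnb1, whose proteins are tied together, were not taken as a pair. Their FPKM were 94.3 and 77.3 in the control, 114 and 27.5 in KOa, and 66.0 and 18.2 in KOb.

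Genes of the Rh and Kell complexes had unlike values. Rhd, the gene of the Rh protein that sits with the Rh-associated glycoprotein, had an FPKM of 401 in the control, 339 in KOa and 244 in KOb, and its deposited log2 ratio in KOb was -0.72 ± 0.27 (q 0.00115). The ratio of Rhag to Rhd was 0.378 in the control, 0.572 in KOa and 0.677 in KOb, a log2 change of 0.60 ± 0.39 in KOa and 0.84 ± 0.39 in KOb. Xk, whose protein is bound to the Kell protein by a disulfide bond, stood at 7.89, 9.77 and 9.54 FPKM and was not called. The ratio of Kel to Xk was 12.6 in the control, 10.7 in KOa and 6.78 in KOb, a log2 change of -0.24 ± 0.40 in KOa and -0.89 ± 0.40 in KOb.

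**Figure D3:**
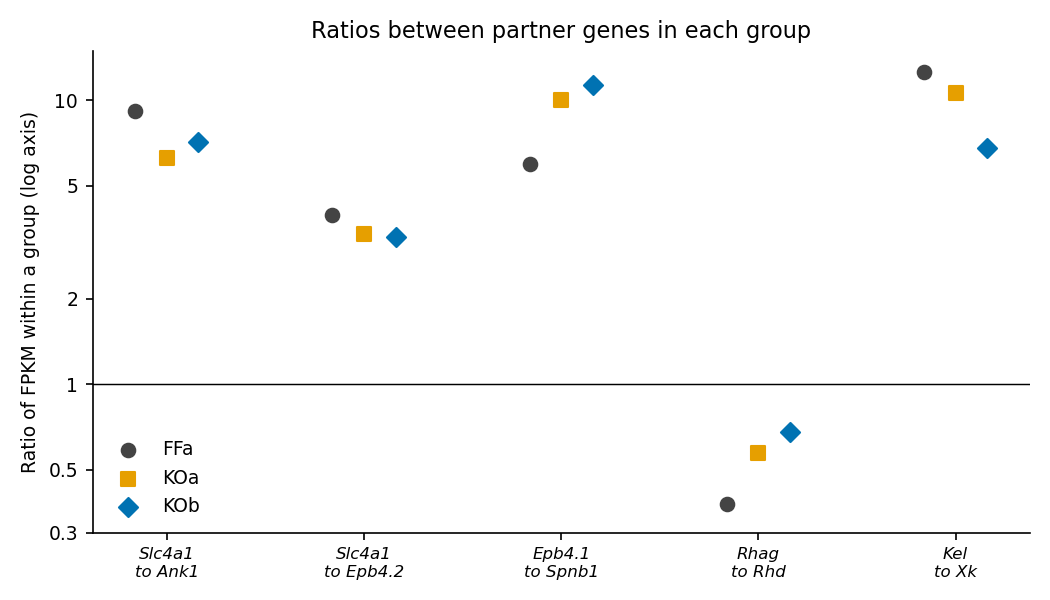
Ratio of FPKM between partner genes (log axis) within the control (FFa), KOa and KOb, 1 point per group. Epb4.1 to Spnb1 goes from 5.98 in the control to 11.3 in KOb, whereas Slc4a1 to Epb4.2 lies between 3.31 and 3.96.

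A list of 33 further genes of the red cell membrane, made by known function, held 31 that were tested. In KOa 4 of them were called higher and 3 lower than the control, beside 7.99% and 14.1% of all tested genes. In KOb 3 were called higher and 8 lower than the control, beside 12.8% and 15.2% of all tested genes. Against KOa 1 was higher and 11 were lower, beside 10% and 6.19%. Their median deposited log2 ratios were 0.05 in KOa, -0.23 in KOb and -0.29 between the mutants. A standard normal reading of the statistic called 2, 4 and 1 of the 31, beside 7.47%, 9.54% and 2.69% of all tested genes.

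Among 13 other skeleton genes, 4 were called lower in KOb than in the control on the authors' scaling, beside 15.2% of all tested genes. None of the 4 would be below 0 with equal FPKM sums. These were Epb4.9, the gene of the actin bundler dematin (90.1 to 58.6 FPKM, deposited log2 ratio -0.62 ± 0.30), the adducin genes Add1 (-0.59 ± 0.30) and Add2 (-0.62 ± 0.28), and Mpp1, the gene of a scaffold that binds the Epb4.1 protein and glycophorin C (-0.52 ± 0.33). The other 9 skeleton genes were not called in KOb against the control, among them the tropomyosin genes Tpm1 (-0.23 ± 0.30) and Tpm3 (0.09 ± 0.30), whose proteins line the short actin filaments. The same 4 were lower in KOb than in KOa, together with Tspan33, a tetraspanin gene (-0.63 ± 0.29), beside 6.19% of all tested genes. Under a standard normal reading of the statistic, none of the 13 was called in any comparison. That reading called 9.54% of all tested genes in KOb against the control and 2.69% between the mutants. The beta-actin gene Actb (389 in the control, 335 in KOa and 383 in KOb), the tropomodulin gene Tmod1 (26.0, 21.8 and 19.3) and the stomatin gene Stom (136, 122 and 123) did not pass in any comparison. In KOa the 1 called skeleton gene was Add3, a weakly expressed adducin (2.18 to 1.05 FPKM), and it was higher in KOb than in KOa.

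Among 18 tested surface and blood group genes, 4 were called lower in KOb than in the control, beside 15.2% of all tested genes. Of these 4, Darc and Slc2a4 would stay below 0 with equal FPKM sums. Darc, the gene of the Duffy chemokine-binding antigen, went from 21.3 to 9.73 FPKM (deposited log2 ratio -1.13 ± 0.29). The water channel gene Aqp1, which carries the Colton antigen, was at 244 in the control, 145 in KOa and 134 in KOb, and was called lower in both (-0.76 ± 0.29 and -0.87 ± 0.29). Rhd, above, and the glucose transporter gene Slc2a4 (8.90 to 3.44 FPKM) were the other 2.

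Other surface genes rose. Cd59a, the gene of an inhibitor of complement lysis, had an FPKM of 20.1 in the control, 57.1 in KOa and 42.7 in KOb, with deposited log2 ratios of 1.51 ± 0.30 and 1.09 ± 0.30. Cd44, the gene of the adhesion receptor of the Indian blood group, which declines as erythroblasts mature, rose in KOb (9.36 to 14.8 FPKM, 0.66 ± 0.30). The transporter genes Abcg2 and Abcb6, which carry the Junior and Langereis antigens, rose in KOa (0.47 ± 0.28 and 0.54 ± 0.28) and were not called in KOb against the control. Slc2a1, a glucose transporter gene, rose in both mutants from an FPKM of 0.392. Between the mutants Abcg2 was called lower in KOb on the authors' scaling (-0.56 ± 0.27, q 0.00963). No rescaling tried would lower a ratio to the control by more than 0.04, so these rises keep their sign. Of the rises, those of Cd59a and Slc2a1 stayed called in KOa under a standard normal reading of the statistic. In KOb that of Cd59a alone did.

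**Figure D4:**
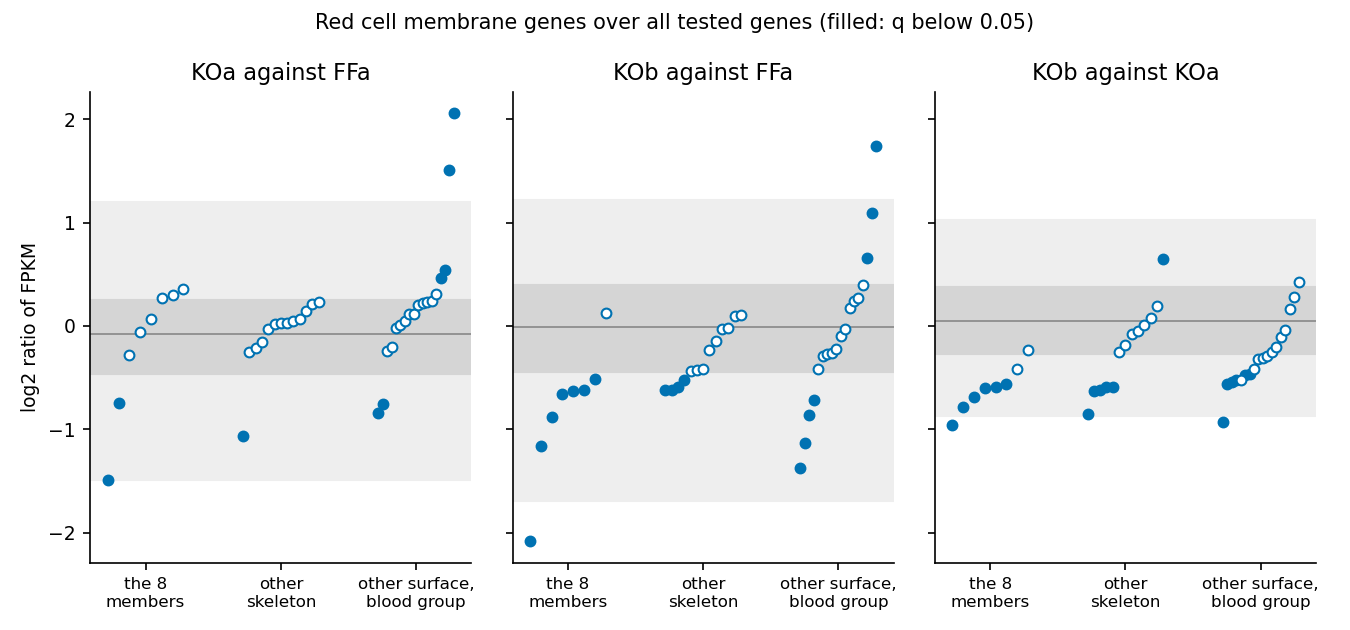
Deposited log2 ratios of the 8 members, 13 other skeleton genes and 18 other surface and blood group genes in the 3 comparisons, 1 point per tested gene, filled where q is below 0.05, over grey bands from the 25th to the 75th and from the 5th to the 95th percentile of all tested genes. In KOb against the control 7 of 8 members lie below the inner band, whose lower edge is -0.44, and in KOa against the control 2 do, on the authors' scaling, and equal FPKM sums move points and bands alike.

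Regulators of these genes were compared by their own levels. Gata1 had an FPKM of 118 in the control, 138 in KOa and 105 in KOb, and Klf1 stood at 79.2, 80.6 and 62.0. Neither was called in any comparison. Of the 7 regulators on the list, Zfpm1, the gene of a GATA1 cofactor, rose in KOa (80.5 to 112 FPKM, deposited log2 ratio 0.48 ± 0.29, q 0.0348). It was the 1 regulator called there, beside 7.99% of all tested genes called higher. Zfpm1 and Tal1, the gene of a partner of GATA1 in its complexes, were called lower in KOb than in KOa (-0.78 ± 0.29 and -0.46 ± 0.29), and both would be above 0 with equal FPKM sums. Between the mutants 6.19% of all tested genes were called lower. At an unadjusted p under 0.05, 4 of the 7 regulators were lower in KOb than in KOa, Gata1 and Klf1 among them, and none was higher. None of the 7 was called by Cuffdiff in KOb against the control, where 1 was higher and 1 lower at an unadjusted p under 0.05. Of all tested genes 15.2% were called lower and 12.8% higher there.

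Spnb1 and Epb4.1 had the log2 ratios farthest from 0 of the 8 in KOb, both negative, and the genes most like them were sought among 2263 genes that had at least 10 FPKM in all groups, by distance in the plane of the 2 log2 ratios to the control. This likeness rests on 3 group values alone. Nearest to Spnb1 were Cd74 (69.6 FPKM in the control, 23.8 in KOa and 16.5 in KOb, distance 0.06), the gene of the invariant chain of MHC class II and 1 of the 10 B cell markers above, all of which were called lower in both mutants, Sec61g, the gene of a subunit of the protein channel of the endoplasmic reticulum (454, 176 and 109.9, distance 0.12), and the microRNA entry Mir682 (distance 0.13). Nearest to Epb4.1 were Picalm, the gene of a clathrin adaptor (98.3, 59.6 and 44.3 FPKM, distance 0.02), the chromatin gene Dek (distance 0.06) and the sphingosine kinase gene Sphk1 (distance 0.07).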

How the data were processed

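Per the labels' protocols, total RNA was cleaned on columns, treated with DNase and, for each of 9 libraries, prepared by the NuGEN Encore Complete method. The submitters' processing notes name Cuffdiff 2.1.1, TopHat2 2.0.8b and Bowtie2 2.1.0, and build mm10. The sources used here do not give the annotation, scaling, filters or use of strand. The authors deposited 1 FPKM value per gene and group, with libraries pooled, so no replicate value, SD or depth could be had. The log2 ratio in the authors' deposited table has no pseudocount, and it differed from a recomputed one by over 0.01 in 13 of 54373 results, none of them members. The deposited statistic is a score for that ratio. The deposited q-value matched a Benjamini-Hochberg adjustment over 31813 tested results, and the smallest deposited p-value is 5e-05.

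Computed here with Python 3.11.15, numpy 2.4.6 and pandas 2.3.3 were standard errors (ratio over statistic), percentages, partner ratios, list counts and motif matches. The adjustment was tested on simulated data. Alternatives were a q threshold of 0.01, adjustment within a comparison or for genes at 1 FPKM or more, a standard normal reading of the statistic, a pseudocount of 1, and 3 rescalings (equal sums, equal sums without globin genes, and centring on the median of expressed genes). The members, the lists and the rule for named genes (members, list genes, and the 3 genes most like each of the 2 members with log2 ratios farthest from 0 in KOb) were chosen with earlier results of these data known. Promoter sequences are from RefSeq, GRCm38.p6, the same build as mm10, and all 8 symbols were matched to current ones. A further member of the gene set, and a further gene of the lists, are not reported here, and no count or figure holds them.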

Additional observations from a re-analysis of the deposited data

How the results depend on the processing

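No paired analysis was possible because the deposited table holds 1 pooled value per group, and for the same reason no library could be left out. The number of called members stayed within 1.5 times of the reported one with a q threshold of 0.01, with adjustment within a comparison and for genes at 1 FPKM or more. Under a standard normal reading of the statistic, 1 member was called for KOa against the control, 2 for KOb against the control and 1 between the mutants, and 2, 4 and 1 other membrane genes. Of all tested genes that reading called 7.47%, 9.54% and 2.69% in the same order. At a q threshold of 0.01, 7 other membrane genes were called between the mutants, beside 8.44% of all tested genes. A pseudocount of 1 and centring on the median of expressed genes moved no member's ratio by its standard error or more. With equal FPKM sums the median of the members became 0.27 for KOb against the control and 0.35 between the mutants, and with equal sums without globin genes it became 0.54 for KOa and -0.13 for KOb against the control. Equal sums turned called ratios of KOb to the control positive for Ank1 (0.40), Slc4a1 (0.027), Epb4.2 (0.28), Icam4 (0.26) and Kel (0.30), and ratios of KOb to KOa for Spnb1 (0.36), Ank1 (0.16), Slc4a1 (0.35), Epb4.2 (0.39) and Kel (0.27). That rescaling shifts all genes alike, with the median of expressed genes at 0.93 and 1.00.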

Other observations

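Relatives of the members that serve other cells were also measured. Of 26 such genes listed, 25 were found and 15 were tested, and apart from the transglutaminase gene Tgm2 (17.6 FPKM in the control, 23.7 in KOa and 16.7 in KOb) the tested ones stayed below 5 FPKM. Against the control, 1 was called higher and 4 lower in KOa, beside 7.99% and 14.1% of all tested genes. In KOb 1 was called higher and 5 lower, beside 12.8% and 15.2%. The general spectrin genes Spna2 (1.56 FPKM in the control, 0.577 in KOa and 0.745 in KOb) and Spnb2 (3.19, 1.53 and 1.78) were called lower in both mutants, as was Epb4.1l2, a relative of Epb4.1 (1.93, 0.423 and 0.421), and with equal FPKM sums Spnb2 alone of these would turn positive, in KOb. Ank2, an ankyrin gene of muscle and nerve, rose from 0.0690 FPKM to 0.516 in KOa and 0.350 in KOb. The B cell and macrophage marker sums given above were also lower in both mutants, and their part in these values was not tested.

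Icam4 stands between Icam1 and Icam5 on chromosome 9, with 576 bases to the end of Icam1 and 1506 to the start of Icam5. Icam1 was at 0.838 FPKM in the control, 1.05 in KOa and 1.15 in KOb, and Icam5 at 0.836, 0.517 and 0.377. The FPKM of Icam4, 60.3 in the lowest group, lay far above those of both neighbours.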
